A study of Mus musculus with 6 samples.

Results

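Endothelial cells line blood vessels and, in the head of an embryo of this age, form the first vessel network around the neural tube. The 10 genes described here mark these cells: the VEGF receptor genes Kdr and Flt1, the TIE receptor genes Tek and Tie1, the junction and adhesion genes Cdh5, Pecam1, Cldn5 and Esam, and the transcription factor genes Etv2 and Sox17. They were taken by symbol from the 54532 genes of the count files, and all 10 were among the 14008 genes with enough reads to be tested. RNA came from whole heads of mouse embryos at embryonic day 8.5. The wild-type group held 3 pools and the Sf3b4 mutant group held 3 pools, each of 3 heads collected before defects of form appeared. The labels call the mutants both homozygous null and neural crest mutant, so which cells lost Sf3b4 is not settled. The labels name no Cre line, nor the strain or any allele that the wild-type embryos carried. Whether the endothelium of these heads carried the deletion is therefore not known from the labels.

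VEGF ligands made by surrounding tissue bind the receptor tyrosine kinase VEGFR2, encoded by Kdr, and drive the formation and growth of endothelium. VEGFR1, encoded by Flt1, binds the same ligand and in the embryo acts largely as a trap that holds it back. Angiopoietins act later through TEK (TIE2), with TIE1 as its partner receptor, to steady the vessel wall. ETV2, an ETS transcription factor, starts the endothelial programme and is switched off afterwards, and SOX17 is used by arterial endothelium and by endoderm.

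The upstream sequences of 3 receptor genes are shown because binding by ETS factors, the family of ETV2, and by SOX factors, the family of SOX17, is a textbook feature of endothelial gene control. RefSeq start sites on GRCm38.p6 (the assembly of mm10) were listed for 6 of the 10 genes. The 250 bases before the start are given 5′ to 3′ on the gene's strand for Kdr (chr5:75978456-75978705, minus strand), Flt1 (chr5:147726012-147726261, minus strand) and Tek (chr4:94739039-94739288, plus strand). Capitals mark the letters GGAAG, called an ETS core here, or AACAAT, called a SOX core here, on either strand. Only these exact letters were searched, so other forms of either core are neither marked nor counted.
Kdr: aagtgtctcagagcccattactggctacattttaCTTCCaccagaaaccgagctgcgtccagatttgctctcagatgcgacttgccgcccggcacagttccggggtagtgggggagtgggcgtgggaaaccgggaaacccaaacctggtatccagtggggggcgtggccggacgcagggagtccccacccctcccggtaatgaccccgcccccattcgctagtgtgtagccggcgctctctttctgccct
Flt1: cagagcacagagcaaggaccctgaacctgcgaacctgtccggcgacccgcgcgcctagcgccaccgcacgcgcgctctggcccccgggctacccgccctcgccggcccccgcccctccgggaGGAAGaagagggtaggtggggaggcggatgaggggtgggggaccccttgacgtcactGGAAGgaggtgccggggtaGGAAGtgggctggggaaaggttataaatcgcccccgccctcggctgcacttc
Tek: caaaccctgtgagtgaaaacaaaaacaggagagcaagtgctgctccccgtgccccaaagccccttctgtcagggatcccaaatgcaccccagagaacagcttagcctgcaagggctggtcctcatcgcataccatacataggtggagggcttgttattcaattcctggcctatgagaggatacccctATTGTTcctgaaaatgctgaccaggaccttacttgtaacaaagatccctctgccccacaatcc
The Kdr window held 1 ETS core, that of Flt1 held 3, and that of Tek held none but had 1 SOX core, and no matches overlapped. The windows not printed held 6 ETS cores for Tie1, 2 for Etv2 and 0 for Cldn5. Among all 32851 windows of this length 64.1% held an ETS core and 9.42% a SOX core, so an ETS match is common. No GATA core (AGATAA, found in 9.99% of windows) was in the windows of these 3 genes. A match is a description of letters, not a binding site.

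Sequencing depth ran from 6930827 to 12251910 counts per pool, and the 10 genes together took between 0.0249% and 0.0317% of them. Levels are given as CPM, that is counts divided by the library size after TMM factors had corrected it for differences in library make-up. Differences were tested with edgeR's quasi-likelihood test over all 14008 genes, two-sided, and a gene passed where its Benjamini-Hochberg adjusted p was under 0.05. Sf3b4 itself had a mean of 71.4 ± 6.97 CPM in the wild type and 60.4 ± 4.09 CPM in the mutants (SD, n = 3 each, edgeR adjusted p = 0.128), and counts per gene do not show the deleted exons. Reads of 4 Y-linked genes numbered 344 to 664 in 4 of the pools and 1 in wild-type replicate 1 as in mutant replicate 3. The litters behind the pools are not described, so p-values measure the spread between these pools.

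Kdr was higher in the mutant heads, and the other 9 endothelial genes did not pass the test, most of them with levels slightly above those of the wild type. Of the 10, 1 rose, 0 fell and 9 did not pass, against 2.65% of all tested genes called higher and 3.88% called lower. At an unadjusted edgeR p under 0.05, 5 genes were higher and 0 lower, where 11.0% of all genes were higher and 12.2% lower. In 6 genes (Kdr, Flt1, Tek, Pecam1, Cldn5 and Esam) every mutant pool lay above every wild-type pool, against 13.8% of all tested genes, and in none did they all lie below. DESeq2 also called 1 higher, where it called 331 (1.66%) of the 19940 genes to which it gave an adjusted p higher. Of these calls 330 were among the 14008 genes tested by edgeR. At a threshold of 0.1, 3 were called higher and 0 lower, where 4.73% of all tested genes were called higher. After a correction for gene length and base composition, 3 were called higher and 0 lower at 0.05, where 4.60% of all genes were called higher. The median log2 fold change of the 10 genes was 0.29, with 0.00 over all tested genes. In bulk tissue, more endothelial cells and more RNA of these genes per cell cannot be told apart.

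**Figure D1:**
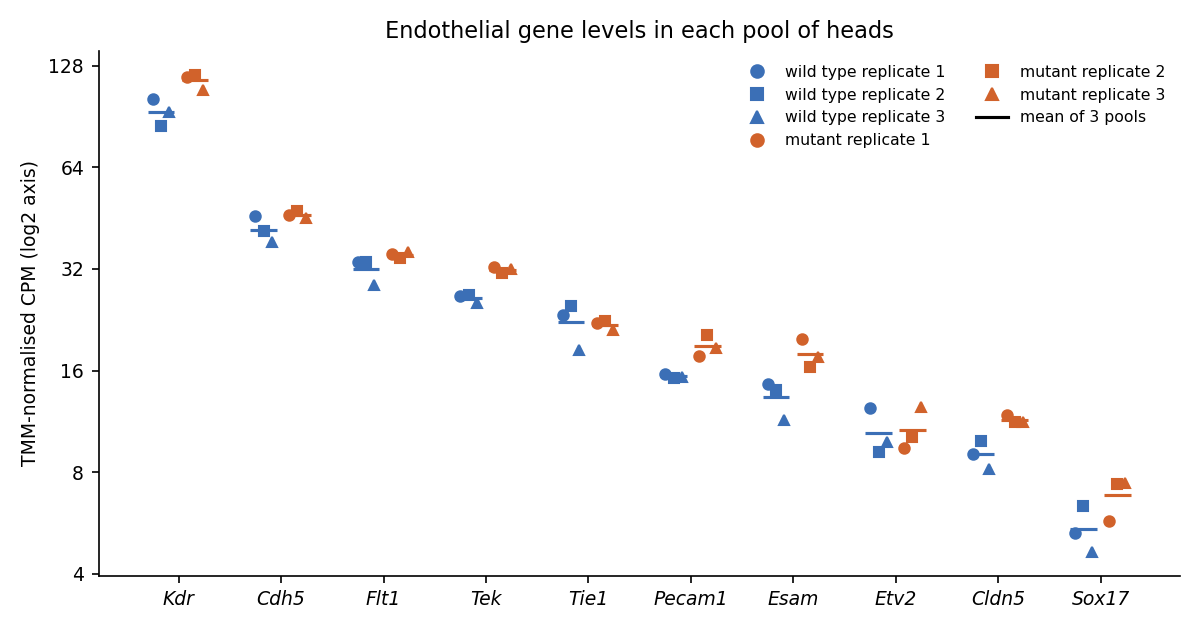
Level of the 10 endothelial genes in TMM-normalised CPM (log2 axis) in each of the 6 pools, with the mean of each genotype as a line. The mutant pools of Kdr, at 109 to 120 CPM, all sit above the wild-type pools, at 85.0 to 102 CPM, while the pools of Tie1 and Etv2 are intermixed.

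Kdr (ENSMUSG00000062960, mm10 chromosome 5, 75932827 to 75978458, minus strand) was the most abundant of the 10 genes. Wild-type pools were at 102, 85.0 and 93.2 CPM and mutant pools at 118, 120 and 109 CPM. The groups did not overlap, and the lowest mutant pool exceeded the highest wild-type pool only narrowly. Mean levels of 93.5 ± 8.59 and 115.8 ± 6.18 CPM (SD, n = 3 each) gave a rise of 0.31 on the log2 scale (SE 0.0818, edgeR adjusted p = 0.0356) or 1.24-fold (95% interval 1.10 to 1.39). This call was lost without wild-type replicate 2 (edgeR adjusted p = 0.132) or without mutant replicate 1 (0.173), 2 (0.138) or 3 (0.0571), and with limma-voom (adjusted p = 0.0517), while the log2 fold change stayed between 0.25 and 0.38 with any 1 pool left out.

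Flt1 (ENSMUSG00000029648, chromosome 5, 147561604 to 147726011, minus strand) was read at 33.5, 33.6 and 28.8 CPM in wild-type pools against 35.4, 34.5 and 36.0 CPM in mutant pools. Wild-type replicate 3 was the low pool, and the other wild-type pools lay just below the mutant ones. The log2 fold change was 0.15 (SE 0.0965, edgeR adjusted p = 0.384), with a 95% interval from 0.960-fold to 1.28-fold. Flt1 has 13504 exonic bases, the most of the 10 genes, and its value depended on removing each pool's trend with gene length and base composition (the length and GC correction), after which the log2 fold change was 0.32 (edgeR adjusted p = 0.0243).

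To compare the VEGF receptors with each other free of any scaling, their reads were divided within each pool. Kdr reads per Flt1 read were 3.05, 2.53 and 3.24 in the wild type and 3.34, 3.49 and 3.02 in the mutants. The groups overlapped (exact two-sided permutation test on the log ratio, p = 0.3, adjusted over 2 pairs 0.3, n = 3 each). The smallest p that 3 against 3 allows here is 0.1, so this test could not have passed a threshold of 0.05 and does not say whether Kdr and Flt1 changed to the same degree.

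Among the TIE receptors Tek (ENSMUSG00000006386, chromosome 4, 94739289 to 94874976, plus strand) had the tightest groups. Its levels were 26.7, 26.7 and 25.3 CPM in wild-type pools and 32.3, 31.1 and 32.0 CPM in mutant pools. Every mutant pool was clearly above every wild-type pool. Mean levels were 26.2 ± 0.793 and 31.8 ± 0.611 CPM (SD, n = 3 each), with a log2 fold change of 0.28 (SE 0.0934) and a 95% interval from 1.06-fold to 1.39-fold. It did not pass (edgeR adjusted p = 0.0863), nor did it in any of 17 alternative settings (0.0509 to 0.299).

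Tie1 (ENSMUSG00000033191, chromosome 4, 118471191 to 118490061, minus strand), by contrast, was read at 23.4, 24.9 and 18.4 CPM in the wild type against 22.2, 22.4 and 21.1 CPM in the mutants. The mutant pools fell inside the wild-type range. Its log2 fold change was -0.01 (SE 0.12, edgeR adjusted p = 0.974), the interval ran from 0.832-fold to 1.19-fold, and the sign of the estimate changed between settings. Tek reads per Tie1 read were 1.14, 1.07 and 1.37 in wild-type pools and 1.46, 1.39 and 1.51 in mutant pools. These ratios did not overlap, with the smallest p that 3 against 3 allows (exact two-sided permutation test, p = 0.1, adjusted over 2 pairs 0.2, n = 3 each), which cannot pass a threshold of 0.05.

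**Figure D2:**
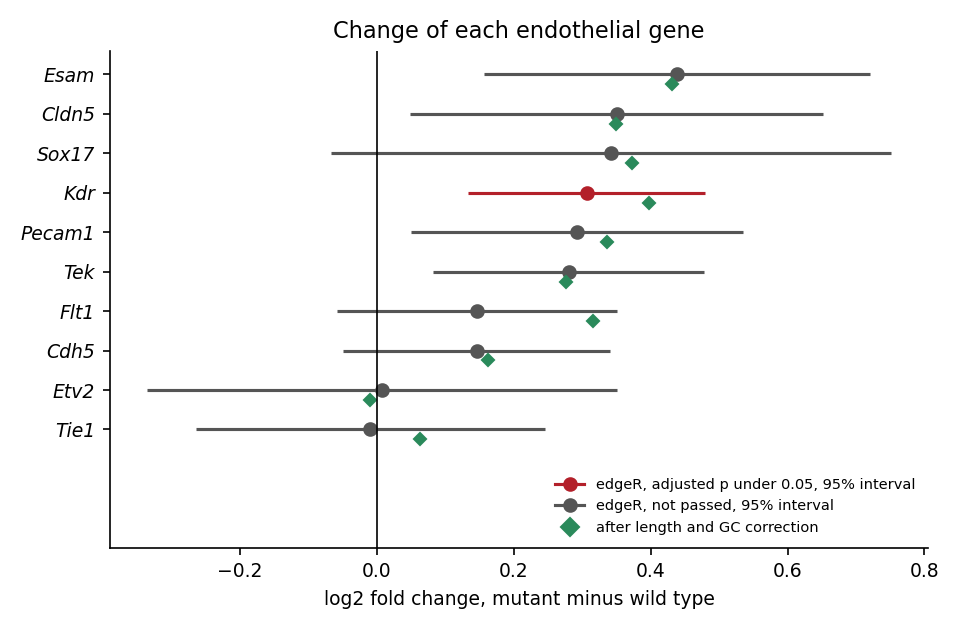
Log2 fold change of each endothelial gene, mutant minus wild type, with its 95% interval from edgeR (circles and lines) and the estimate after the length and GC correction (diamonds). Kdr alone passed the threshold, the unadjusted intervals of Kdr, Tek, Pecam1, Cldn5 and Esam lie above 0, and those of Tie1 and Etv2 are centred near 0.

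Esam (ENSMUSG00000001946, chromosome 9, 37528078 to 37538319, plus strand), an adhesion molecule of endothelial tight junctions, was read at 14.6, 14.0 and 11.5 CPM in wild-type pools against 19.9, 16.4 and 17.6 CPM in mutant pools. The pools did not overlap. Its log2 fold change of 0.44 (SE 0.133) was the largest of the 10 genes, with an interval from 1.11-fold to 1.65-fold, but it did not pass (edgeR adjusted p = 0.0607). It passed without wild-type replicate 1 (0.0381), with no filter on low counts (0.0369) and after the length and GC correction (0.0319).

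Cldn5 (ENSMUSG00000041378, chromosome 16, 18776847 to 18778262, plus strand) encodes the main claudin of brain vessels and had 9.08, 9.89 and 8.18 CPM in wild-type pools and 11.8, 11.3 and 11.2 CPM in mutant pools. The pools were again separate, and the log2 fold change was 0.35 (SE 0.142, edgeR adjusted p = 0.154). Pecam1 (ENSMUSG00000020717, chromosome 11, 106654217 to 106750628, minus strand), the CD31 adhesion molecule, had 15.7, 15.3 and 15.3 CPM in wild-type pools and 17.6, 20.4 and 18.7 CPM in mutant pools. It too was separate between the groups, its log2 fold change being 0.29 (SE 0.114, edgeR adjusted p = 0.139).

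Cdh5 (ENSMUSG00000031871, chromosome 8, 104101625 to 104144511, plus strand) encodes VE-cadherin, the cadherin that holds endothelial cells together. It was read at 45.9, 41.4 and 38.3 CPM in wild-type pools against 46.1, 47.3 and 45.4 CPM in mutant pools. Wild-type replicate 1 reached into the mutant range. The log2 fold change was 0.15 (SE 0.092, edgeR adjusted p = 0.364), with an interval from 0.966-fold to 1.27-fold.

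Of the transcription factors, Etv2 (ENSMUSG00000006311, chromosome 7, 30633616 to 30635852, minus strand) was read at 12.4, 9.18 and 9.82 CPM in wild-type pools against 9.44, 10.2 and 12.5 CPM in mutant pools. Each group had 1 pool above the others and the ranges coincided. Its log2 fold change was 0.01 (SE 0.162, edgeR adjusted p = 0.985), the interval ran from 0.792-fold to 1.27-fold, and its sign changed between settings. Sox17 (ENSMUSG00000025902, chromosome 1, 4490931 to 4497354, minus strand), the least abundant gene, had 5.28, 6.36 and 4.65 CPM in wild-type pools and 5.75, 7.37 and 7.45 CPM in mutant pools. The groups overlapped, and the log2 fold change was 0.34 (SE 0.193, edgeR adjusted p = 0.306). A transcript on the opposite strand, Gm37587, covers 16.9% of its exonic bases, and since no source used here says whether counting used strand, reads of the pair cannot be told apart.

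Per length, the order of the 10 genes in the wild type was led by Kdr with 10.4 ± 0.951 CPM per kilobase of exon (SD, n = 3). Etv2 followed with 9.99 ± 1.64 and Cdh5 with 9.96 ± 0.903 CPM per kilobase, and the ranges of these 3 neighbours overlapped. Cldn5 (6.39 ± 0.603), Tek (5.57 ± 0.168) and Esam (4.66 ± 0.587 CPM per kilobase) came next, each range below the one before. Tie1, at 4.52 ± 0.687, overlapped with Esam, and Pecam1, at 2.48 ± 0.0346, overlapped with Flt1, at 2.37 ± 0.206 CPM per kilobase. Sox17 was lowest at 1.14 ± 0.181 CPM per kilobase. In the mutants Kdr stood at 12.8 ± 0.685 CPM per kilobase and Sox17 at 1.44 ± 0.201, so the first and last places were the same.

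Precision differed between the genes with their reads. Kdr had 602 to 1440 counts per pool, for which counting error alone gives a coefficient of variation of 3.41% over the wild-type pools, and the measured one was 9.19%. Sox17 had 45 to 70 counts per pool, with 13.9% from counting and 15.9% measured. In the mutant pools the measured variation was 1.92% for Tek, 2.15% for Flt1, 2.16% for Cdh5 and 2.88% for Cldn5, each below its counting error (5.82%, 5.52%, 4.83% and 9.72%). Such closeness of 3 values carries little information on the true spread, which is why edgeR shares it across genes.

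The wild-type pools differed from each other more than the mutant pools did in the sum over the 10 genes. That sum, of which Kdr made up 34.7% of reads in the wild type, was 289, 266 and 253 CPM in wild-type pools and 319, 321 and 311 CPM in mutant pools. Wild-type replicate 3 was the lowest of its group in 7 of 10 genes and the highest in 0. Without it the median log2 fold change was 0.25. As shares of the reads of the 10 genes, Tie1 took 8.24% ± 1.04 in the wild type and 6.91% ± 0.0943 in the mutants, and Cdh5 15.5% ± 0.381 and 14.6% ± 0.128 (SD, n = 3 each). Esam took 4.95% ± 0.381 and 5.67% ± 0.563. The mutant shares of Tie1 and Cdh5 all lay below those of the wild type, and the Esam shares of the groups overlapped. These are 3 of the 10 shares, chosen after their values were seen and not tested.

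Markers of other cells were compared in the same pools, since Pecam1 is also read in blood cells and Sox17 in endoderm. Of 11 markers of other blood cells, 7 were too low to test, with at most 5 counts in any pool (Ptprc, Csf1r, Spi1, Pf4, Fcer1g, Tyrobp and Gp9, the last at 0 in all pools). Their summed level, mostly Kit, was 91.4 to 94.8 CPM in the wild type and 84.2 to 89.4 CPM in the mutants. Kit, a receptor of blood progenitors and of pigment and germ cells, fell by 0.30 on the log2 scale (edgeR adjusted p = 0.0335), a call lost with DESeq2 (0.0557), after the length and GC correction (0.0609), in the 4 pools with reads of Y-linked genes (0.0669), without wild-type replicate 2 (0.0855) and without any 1 mutant pool (0.0864 to 0.226). The other 3 tested blood genes, Cd44 (0.37, edgeR adjusted p = 0.0643), Runx1 (0.76, 0.239) and Itga2b (0.07, 0.886), had positive fold changes and did not pass, and Cd44 passed after the length and GC correction (0.0311). Of 11 endoderm and yolk sac markers Ttr, Afp, Apoa1, Apoa4 and Cdx2 had at most 5 counts in any pool, Cldn6 rose (0.52) and Trh fell (-0.64), the latter call being lost without mutant replicate 1 (0.105) or 2 (0.0872). The endoderm sum, in which Sox17 itself is counted, was 144 to 179 CPM in wild-type pools and 200 to 209 CPM in mutant pools. Its difference lay in the epithelial genes Cldn6 and Epcam, together 123.9 CPM in the wild type and 166.5 CPM in the mutants on average. The other 9 markers summed to 41.7 CPM in the wild type and 36.4 CPM in the mutants, of which Sox17 made up 5.43 and 6.85 CPM. Epcam did not pass (0.30, edgeR adjusted p = 0.0646) except without wild-type replicate 3 (0.0116), nor did Foxa1, an endoderm factor (-0.47, 0.19), whose mutant pools all lay below the wild-type pools. The part of endoderm in the values of Sox17 was not tested.

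Heart muscle and primitive red cell markers varied widely between pools, unlike the endothelial genes. The heart sum was 193, 168 and 47.7 CPM in the wild-type pools and 71.3 to 96.9 CPM in the mutant pools, with 0 of 9 tested genes passing and 8 of 9 fold changes negative. Without wild-type replicate 3 the fall of 5 heart genes passed, namely Myh7 (edgeR adjusted p = 0.00179), Ttn (0.00293), Actc1 (0.0112), Myh6 (0.0216) and Myl7 (0.0405). Over all genes that setting called 920 lower, against 543 with no pool left out. The erythroid sum was 283 to 548 CPM in the wild type and 287 to 396 CPM in the mutants, with 0 of 8 passing (1, Hbb-y, lower without wild-type replicate 1) and 8 of 8 fold changes negative, and in both lists edgeR's unadjusted p was under 0.05 for 0 genes and DESeq2 called 0. The highest wild-type pool was 4.05 times the lowest for heart and 1.93 times for erythroid markers, against 1.14 times for the 10 endothelial genes. Wild-type replicate 3, the low pool of the endothelial genes, was also the lowest pool for heart markers and the highest for erythroid markers. Whether this touches the endothelial values was not tested. With that pool left out the log2 fold change of each of the 10 genes was lower. It went from 0.15 to 0.07 for Flt1, from 0.15 to 0.08 for Cdh5 and from 0.44 to 0.33 for Esam. For Tie1 it went from -0.01 to -0.13, and for Kdr from 0.31 to 0.30, with its call kept (edgeR adjusted p = 0.0358).

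The calls among crest and head mesoderm markers went in opposite directions. Of 9 crest markers 5 fell and 0 rose, with a sum of 387 to 427 CPM in wild-type pools and 279 to 323 CPM in mutant pools. Among 9 head mesoderm markers 4 rose (Fst and Cyp26c1 among them) and 0 fell, with sums of 275 to 281 and 334 to 356 CPM. Over all tested genes 2.65% were called higher and 3.88% lower. Fold changes were negative for all 9 crest markers, and positive for 6 and negative for 3 of the mesoderm markers. DESeq2 called 4 crest markers lower and 2 mesoderm markers higher. With 1 pool left out 2 to 5 crest markers fell and 1 to 3 head mesoderm markers rose, Sox10, Tfap2b and Fst each time, and the mesoderm marker Twist1 fell without wild-type replicate 1. Their part in the endothelial values was not tested. Pericyte and smooth muscle markers, the cells that later coat vessels, had sums of 76.3 to 99.0 and 77.6 to 93.6 CPM, with 0 of 5 tested genes passing (0 also at an unadjusted edgeR p under 0.05 and by DESeq2, and 1, Acta2, lower without wild-type replicate 3) and 3 (Cspg4, Myh11 and Kcnj8) at 12 counts or fewer.

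**Figure D3:**
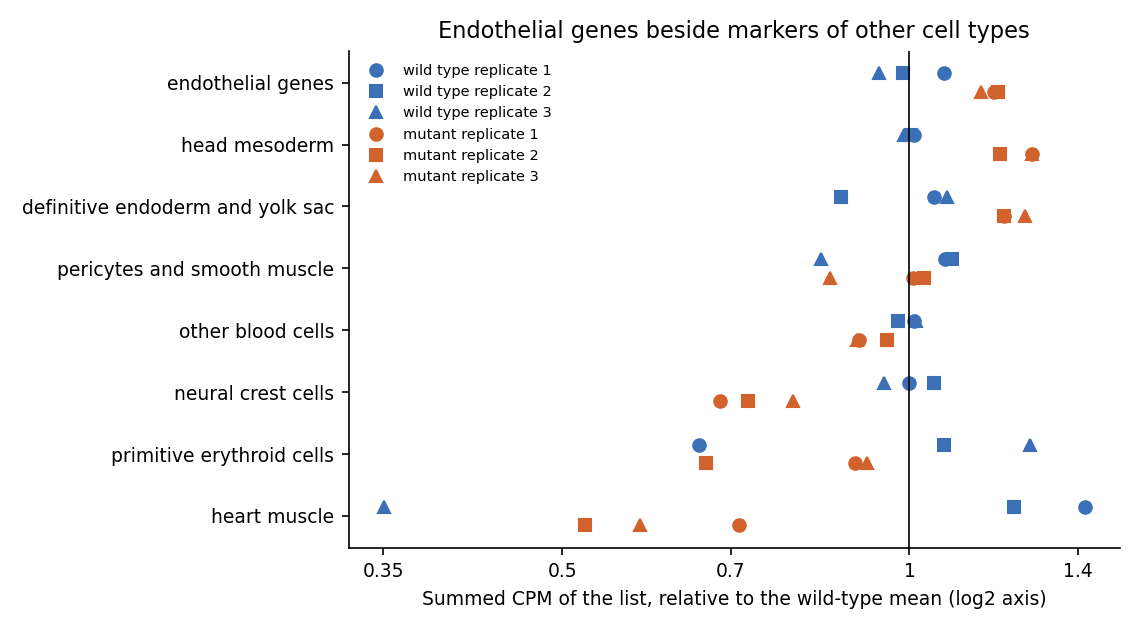
Summed CPM of the 10 endothelial genes and of 7 lists of markers of other cells in each pool, relative to the wild-type mean of the list (log2 axis). Sox17 is counted in both the endothelial and the endoderm sums. Endothelial sums are 253 to 289 CPM in wild-type pools and 311 to 321 CPM in mutant pools, while the heart sum ranges over 4.05 times among wild-type pools alone.

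The ligands and other receptors of the VEGF system showed no change that passed. Of 8 tested genes (edgeR quasi-likelihood test, threshold 0.05 on the adjusted p) 0 rose and 0 fell, 3 had positive and 5 negative fold changes, and the median was -0.07. At an unadjusted p under 0.05 there was 1 higher (Pgf) and 0 lower, and DESeq2 and limma-voom called 0. Vegfa, the chief ligand of KDR, was at 51.9 ± 6.79 CPM in the wild type and 50.8 ± 2.17 CPM in the mutants (SD, n = 3 each), and the log2 fold change was -0.03 (SE 0.1, edgeR adjusted p = 0.901). Pgf, a ligand of FLT1 and not of KDR, was at 3.86 ± 0.982 and 5.77 ± 0.487 CPM, and its log2 fold change of 0.55 did not pass (edgeR adjusted p = 0.136) although its pools did not overlap. Vegfc, a ligand of FLT4, had a log2 fold change of 0.20 (0.378), and Flt4 itself of -0.13 (0.441). The coreceptor genes Nrp1 (0.01) and Nrp2 (-0.10), with Vegfb (-0.13) and Vegfd (-0.27), completed the list.

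None of 4 tested genes of the angiopoietin system passed edgeR's test, nor DESeq2 or limma-voom, and 1 (Svep1) was lower at an unadjusted p under 0.05. Angpt1, the activating ligand of TEK, was at 10.4 ± 2.3 and 11.5 ± 1.32 CPM (SD, n = 3 each, edgeR adjusted p = 0.553). Angpt2, its context-dependent counterpart, had 11 to 50 counts per pool and a log2 fold change of 0.66 with an interval from 0.981-fold to 2.53-fold (edgeR adjusted p = 0.235, and 0.0447 without wild-type replicate 1). Ptprb, the phosphatase VE-PTP that restrains TEK, had -0.23 (0.477) and Svep1, a matrix protein, -0.32 (0.144, and 0.0373 without wild-type replicate 3). Angpt4 had at most 5 counts in any pool and was not tested.

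Among 18 other transcription factor genes of endothelium and its progenitors, 1 rose, 0 fell and 17 did not pass, 13 had positive fold changes and the median was 0.14. Ets2, an ETS factor, went from 45.0 ± 2.03 to 55.5 ± 2.98 CPM (SD, n = 3 each), a rise of 0.30 on the log2 scale (SE 0.0859, edgeR adjusted p = 0.0481). This call was lost with DESeq2 (0.0643), with limma-voom (0.0574), with library size alone (0.0621), without robust estimation (0.0517), in the 4 pools with reads of Y-linked genes (0.0557), without wild-type replicate 2 (0.137) and without any 1 mutant pool (0.0808 to 0.195). The related ETS genes Fli1 (0.29, edgeR adjusted p = 0.104), Erg (0.24, 0.372) and Ets1 (-0.21, 0.0962, also a crest marker) did not pass, nor did Tal1 (0.20, 0.365) and Lmo2 (0.19, 0.375), which act in blood and vessel progenitors.

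Changes went both ways among 39 tested surface and junction genes, of which 3 rose, 2 fell and 34 did not pass, with 27 positive fold changes and a median of 0.15. Mmrn2, a matrix glycoprotein of endothelium, went from 9.33 ± 1.52 to 15.3 ± 0.68 CPM (SD, n = 3 each), a rise of 0.72 (SE 0.147, edgeR adjusted p = 0.00909) that held in all 17 alternative settings. Its pools were 10.1, 10.3 and 7.58 CPM in the wild type and 15.2, 14.6 and 16.0 CPM in the mutants. Aplnr, the apelin receptor, rose by 0.41 (edgeR adjusted p = 0.0175), which did not hold when wild-type replicate 2 (0.0532) was left out, nor without mutant replicate 1 (0.082) or 3 (0.0892), nor in the 4 pools with reads of Y-linked genes (0.102). Calcrl, the adrenomedullin receptor, rose by 0.49 (0.0479), and its call was lost with limma-voom (0.06), without robust estimation (0.0574), in the 4 pools (0.0883) and without wild-type replicate 1 or 2 or any 1 mutant pool (0.0666 to 0.242).

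The 2 genes that fell were Jam2 and Heg1. Jam2, a junctional adhesion molecule, dropped from 11.2 ± 0.995 to 6.51 ± 0.872 CPM (SD, n = 3 each), a change of -0.78 on the log2 scale (SE 0.16, edgeR adjusted p = 0.00922), and its call was lost without mutant replicate 2 (0.0628) and in the 4 pools (0.0535). Heg1, a receptor that stabilises vessel and heart junctions, fell by 0.42 (0.0202), and its call was lost without wild-type replicate 2 (0.1005), without any 1 mutant pool (0.0602 to 0.111) and after the length and GC correction (0.0761). Without wild-type replicate 3, Vwf (0.0345) and Shank3 (0.00661) also fell, in a setting that called 920 genes lower in all, against 543 with no pool left out. Lyve1 and Stab2, which mark lymphatic and sinusoidal endothelium later, had at most 6 counts in any pool and were not tested.

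None of 15 tested genes of arteries, veins and Notch signalling in vessels passed edgeR's test, with 7 positive fold changes and a median of -0.02. DESeq2 and limma-voom called 0 as well, and 2 were higher at an unadjusted p under 0.05. These were Cxcl12 (0.33, edgeR adjusted p = 0.0634) and Unc5b (0.23, 0.125), in both of which the mutant pools lay above the wild-type pools. Both passed after the length and GC correction (Cxcl12 0.0104, Unc5b 0.00588), and 1 passed without wild-type replicate 3 (Cxcl12, 0.0312) or 1 (Unc5b, 0.0489). The arterial Notch ligand gene Dll4 (-0.02, 0.979), its target Hey1 (-0.06, 0.823) and the ephrin gene Efnb2 (0.03, 0.891) were near 0. Over the 5 lists together 4 of 83 genes rose and 2 fell, beside 2.65% and 3.88% of all tested genes, and 61.4% had a positive fold change, beside 50.3%. In 18 the mutant pools all lay above and in 6 all below the wild-type pools, beside 13.8% and 14.4% of all tested genes.

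**Figure D4:**
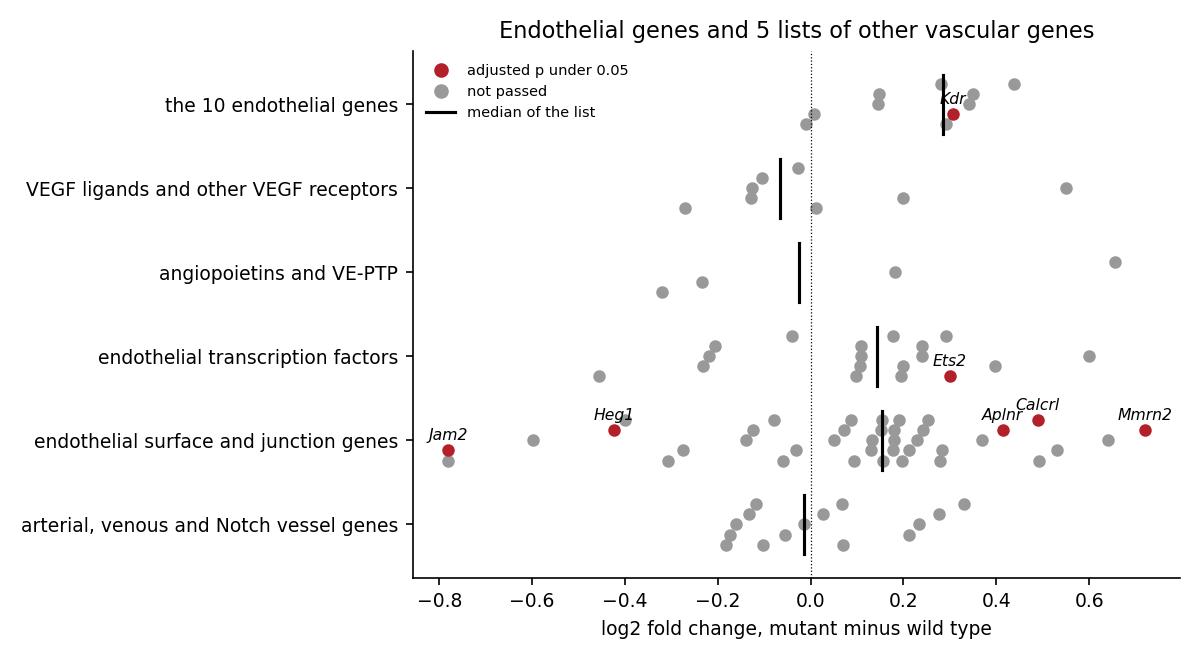
Log2 fold change, mutant minus wild type, of each tested gene among the 10 endothelial genes and 5 lists of other vascular genes, with genes past the threshold named in red and the median of each list as a bar. Medians are 0.29 for the 10 genes, 0.15 for surface and junction genes and -0.07 for VEGF ligands and other receptors.

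By the pattern over the 6 pools, the tested genes most like the mean of the 10 endothelial genes (each gene's log2 CPM centred and scaled) were Zbtb22, Arl4d, Rnf26, Dclre1c and Tatdn3, with Pearson correlations of 0.988 to 0.992 over 6 pools. They were picked as the highest of 13980 correlations, each over few points, of which 181 (1.29%) exceeded 0.9, so these are a description of likeness only. None of the 5 is on the vascular lists used here.

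Kdr, Esam and Tek had the smallest adjusted p of the 10 genes in the first analysis. Kdr passed in 12 of 18 settings (the first analysis and 17 alternatives), Esam in 3 and Tek in 0, while Flt1 passed in 1 and the other 6 genes in 0. Log2 fold changes over the settings were 0.25 to 0.41 for Kdr, 0.33 to 0.53 for Esam and 0.25 to 0.30 for Tek. Those of Cldn5 (0.28 to 0.42), Pecam1 (0.24 to 0.35), Sox17 (0.24 to 0.47), Cdh5 (0.08 to 0.23) and Flt1 (0.07 to 0.32) were also positive in every setting, and those of Tie1 (-0.13 to 0.08) and Etv2 (-0.10 to 0.15) were not.

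**Figure D5:**
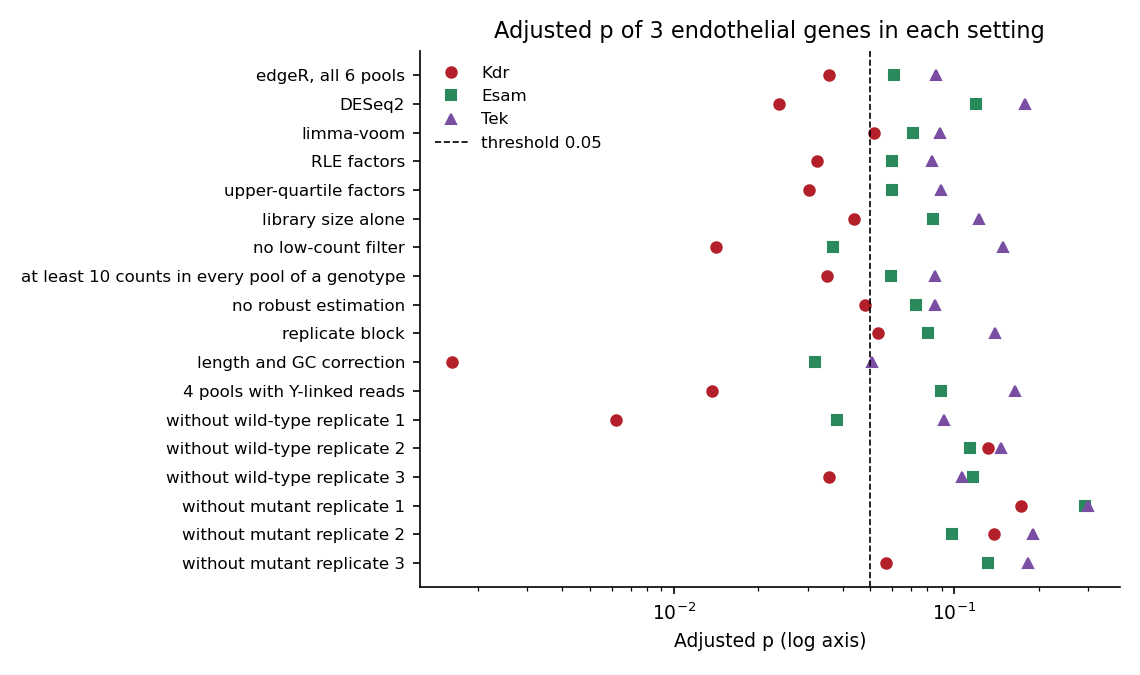
Adjusted p (log axis) of Kdr, Esam and Tek in the first analysis and 17 alternative settings, with the threshold of 0.05 as a dashed line. Kdr lies below the line in 12 of 18 settings, with values from 0.00161 to 0.173, and Tek in 0.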

How the data were processed

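Raw counts of reads per gene were deposited by the authors for 6 pools, as whole numbers with no normalization. A Qiagen micro kit was used for extraction and Illumina's TruSeq total RNA kit for the libraries, per the labels' protocols, and per the submitters' processing notes the build was mm10. The sources used here do not give the aligner, counting program, annotation or strand use. Symbols and exon lengths came from GENCODE M21. Genes were filtered with filterByExpr and tested with edgeR 4.0.16 (glmQLFit with robust estimation and glmQLFTest) in R 4.3.3. A standard error is the log2 fold change divided by the square root of F, and 95% intervals use the test's degrees of freedom. The fit was also run on simulated counts, with changes larger than those of the 10 genes, so its power for changes this small was not tested. Alternatives used DESeq2 1.42.0, limma 3.58.1, other scalings and filters, a block, left-out pools, the 4 pools with Y-linked reads, and an offset for exon length and GC content (splines with 4 degrees of freedom). Counting intervals cover counting error only. The 10 genes and the lists were chosen with earlier results of these data known. Figf and Eltd1 matched no symbol and were read under their current names Vegfd and Adgrl4. The text names all 10 genes, listed genes that passed or had the smallest p, and further listed genes chosen after their values were seen.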

Additional observations from a re-analysis of the deposited data

How the results depend on the processing

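The number of endothelial genes called was 0 with limma-voom, 0 with the replicate number as a block, 2 with no filter on low counts, and 3 after the length and GC correction or at a threshold of 0.1. It ranged from 0 to 2 with 1 pool left out. The log2 fold change of Kdr was 0.31 with limma-voom (adjusted p = 0.0517) and 0.31 with the replicate block (edgeR adjusted p = 0.0532), and it ranged from 0.25 to 0.38 with 1 pool left out. The replicate block treats same-numbered pools as sets. Deviations of same-numbered pools from their group means correlated at -0.175, 0.078 and -0.069 across genes, and those of differently numbered pools at -0.227 to 0.297. These few values cannot decide whether same-numbered pools shared a litter or batch, and the labels do not say. With the block 694 genes were called in all. Under it Kit (0.0671), Ets2 (0.0898) and Calcrl (0.0982) were not called, and the heart gene Myh7 was (0.0217). Calls among other vascular genes numbered 2 instead of 6 when only the 4 pools holding Y-linked reads entered, and ranged from 2 to 10 with 1 pool left out. Over all genes 914 were called, 535 in those 4 pools, 1550 at a threshold of 0.1 and 230 to 1810 with 1 pool left out. The length and GC correction called 644 higher and 528 lower, against 371 higher and 543 lower without it. The log2 fold change of Tie1 was -0.01 and changed sign with limma-voom (0.0125), the length and GC correction (0.0636) and the 4 pools (0.0634), and ranged from -0.135 to 0.0757 with 1 pool left out. That of Etv2 was 0.01 and changed sign with limma-voom (-0.0105), library size alone (-0.0157) and the length and GC correction (-0.0103), and ranged from -0.104 to 0.152 with 1 pool left out. The median over the 10 genes stayed between 0.25 and 0.33, and 8 to 10 of them were positive, in every setting. The cause of these differences was not tested. Genes with few reads, such as Sox17, are limited by depth.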
